A study of Arabidopsis thaliana with 4 samples.

Results

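The beta-glucosidases named BGLU in Arabidopsis thaliana are enzymes of glycoside hydrolase family 1 that cut a glucose unit from small molecules stored as glucosides. The genes described here are those with a probe set that names 1 gene whose symbol or synonym begins with BGLU and a number, and they include PYK10, which is BGLU23. By this rule 22 genes were found of 47 BGLU genes in the RefSeq gene table, among 13286 distinct genes named by a probe set in all, and each had a single probe set. The other 25, among them BGLU18, PEN2 (BGLU26), DIN2 (BGLU30) and the classical myrosinases TGG1 and TGG2, were not analysed here. A probe set shared by BGLU21 and BGLU22 names both genes, so it is not counted among the 22 and its values are given separately.

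Transcripts of whole 6-day-old seedlings kept for 24 h on 120 mM NaCl were measured on 4 Affymetrix ATH1 arrays, 2 of wild type and 2 of the rsa3-1 mutant, called biological replicates in the design text. Both genotypes were in the Columbia gl1 background and carried a luciferase gene under the stress-responsive RD29A promoter. The rsa3-1 line carries a single mutant allele of RSA3, known too as MUR3 or KAM1, which encodes a Golgi enzyme that adds galactose to xyloglucan. Since all arrays had salt, genotypes are compared within salt, and a response to salt itself was not measured. No probe set is annotated to RSA3 here, so the mutation was not checked in these data.

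Plants keep many defence compounds, hormones and cell wall precursors as inactive glucosides, in a compartment apart from the enzyme that frees them. PYK10 is the main protein of ER bodies, spindle-shaped compartments of the endoplasmic reticulum that are abundant in seedling epidermis and roots, and with BGLU21 and BGLU22 it cuts scopolin, a coumarin glucoside, and in the case of PYK10 also indole glucosinolates. Other members act on the glucose ester of abscisic acid, on flavonol glucosides and on monolignol glucosides, the transport or storage forms of lignin precursors.

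Values are log2 values from RMA, so a difference of 1 is a 2-fold change. Array medians ran from 6.46 to 6.51, and Pearson's r across probe sets was 0.997 within each genotype and 0.993 to 0.995 between genotypes. In wild type replicate 1, 44 of 45 bacterial and phage control probe sets were higher than on any other array, with a median excess of 0.94 log2 units. Each call below is therefore also given without that array where it changes.

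Under salt, 2 BGLU genes rose in rsa3-1, BGLU25 by 3.23-fold and BGLU33 by 1.84-fold, and BGLU19 fell, being 2.13-fold lower. The remaining 19 genes did not pass the test, and PYK10 was among them. The 3 calls are limma calls at an adjusted p under 0.05 over all 22746 probe sets, of which 1.13% were called, 0.659% higher and 0.466% lower. Over the 22 genes the median log2 difference was 0.06, against -0.01 over all probe sets, and the median size of the difference was 0.14, against 0.09. Without wild type replicate 1 the family median was -0.01. In 10 of the 22 genes the genotypes did not overlap, 7 higher and 3 lower in rsa3-1. These include BGLU16, where the nearest arrays read 8.4006 in wild type and 8.4032 in rsa3-1. BGLU27 and BGLU32, with mean log2 values under 5, are also among them. Such separation was seen in 38.6% of all probe sets, 17.8% higher and 20.9% lower, so the family's total of 45.5% was near that background. By direction the family had 31.8% higher and 13.6% lower. In whole seedlings, fewer cells of a type and less RNA per cell cannot be told apart.

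**Figure D1:**
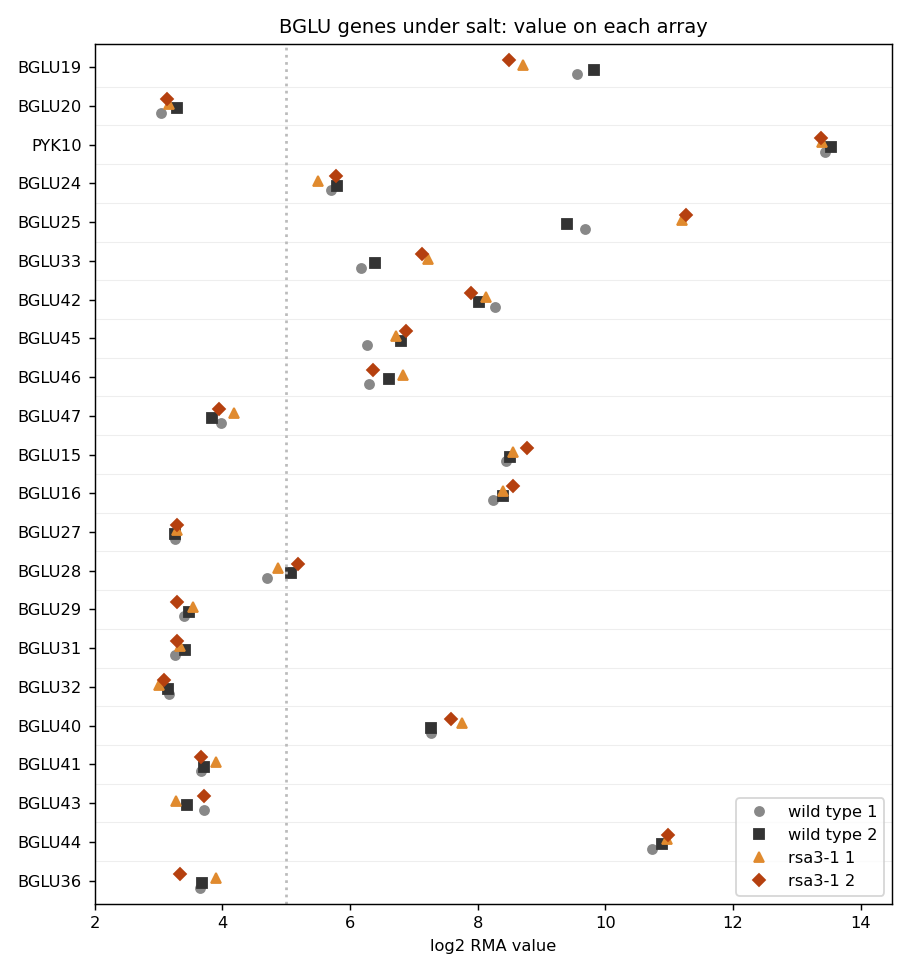
The log2 RMA value of each of the 22 BGLU genes on each of the 4 arrays, with wild type in grey and black and rsa3-1 in orange and red; the dotted line marks a log2 value of 5. BGLU19, BGLU25 and BGLU33 show the genotypes apart, while most other genes have all 4 arrays close together.

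The ER body branch of the family holds BGLU18 to BGLU25, whose proteins carry a predicted signal for retention in the endoplasmic reticulum. Of its 5 genes measured here, 1 rose, 1 fell and 3 did not pass. BGLU25 stood at 9.68 and 9.40 in wild type replicates 1 and 2 and at 11.20 and 11.27 in rsa3-1 replicates 1 and 2. Both rsa3-1 arrays were above both wild type arrays, and the difference was 6.16 times the wider of the gaps between replicates. That ratio alone does not mark a change. It was 8.87 in BGLU27, a dim gene with a log2 difference of 0.04 (limma adjusted p = 0.97). The log2 difference was 1.69, with a standard error of 0.12 and a 95% interval from 1.41 to 1.97 (limma adjusted p = 0.0013), between means of 9.54 ± 0.19 and 11.23 ± 0.05 (SD, n = 2 each). BGLU25 was called whichever array was left out, with log2 differences from 1.55 to 1.83 and a highest adjusted p of 0.0082; without wild type replicate 1 the difference was 1.83.

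BGLU19, of the same branch, went the other way. It was at 9.56 and 9.83 in wild type and at 8.70 and 8.50 in rsa3-1, again with no overlap. The log2 difference was -1.09, with a standard error of 0.13 and a 95% interval from -1.40 to -0.79 (limma adjusted p = 0.0106), between means of 9.69 ± 0.19 and 8.60 ± 0.14 (SD, n = 2 each). The call was lost without wild type replicate 2, the higher of the wild type arrays for this gene (log2 difference -0.96, adjusted p = 0.059), and was kept without each of the other arrays, with a log2 difference of -1.23 without wild type replicate 1.

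PYK10 was bright on every array, at 13.45 and 13.54 in wild type, against 13.40 and 13.38 in rsa3-1, where the highest values on the arrays were 14.26 to 14.42. The genotypes did not overlap, but the log2 difference was only -0.11, with a 95% interval from -0.33 to 0.12 (limma adjusted p = 0.82). A change of PYK10 by 1.5-fold, 0.58 on the log2 scale, lies outside that interval; saturation at this level was not assessed here. The probe set shared by BGLU21 and BGLU22 read 11.14 and 11.27 in wild type, against 10.98 and 11.25 in rsa3-1, which overlap (log2 difference -0.09, 95% interval from -0.38 to 0.20). It sums or mixes both genes, and opposite changes of the pair would not show in it. BGLU24, a little-studied member, had a log2 difference of -0.11 with overlapping genotypes, between 5.50 and 5.80 over the arrays. BGLU20, first found as the anther gene ATA27, was at 3.04 to 3.30 on all arrays with a difference of -0.02.

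**Figure D2:**
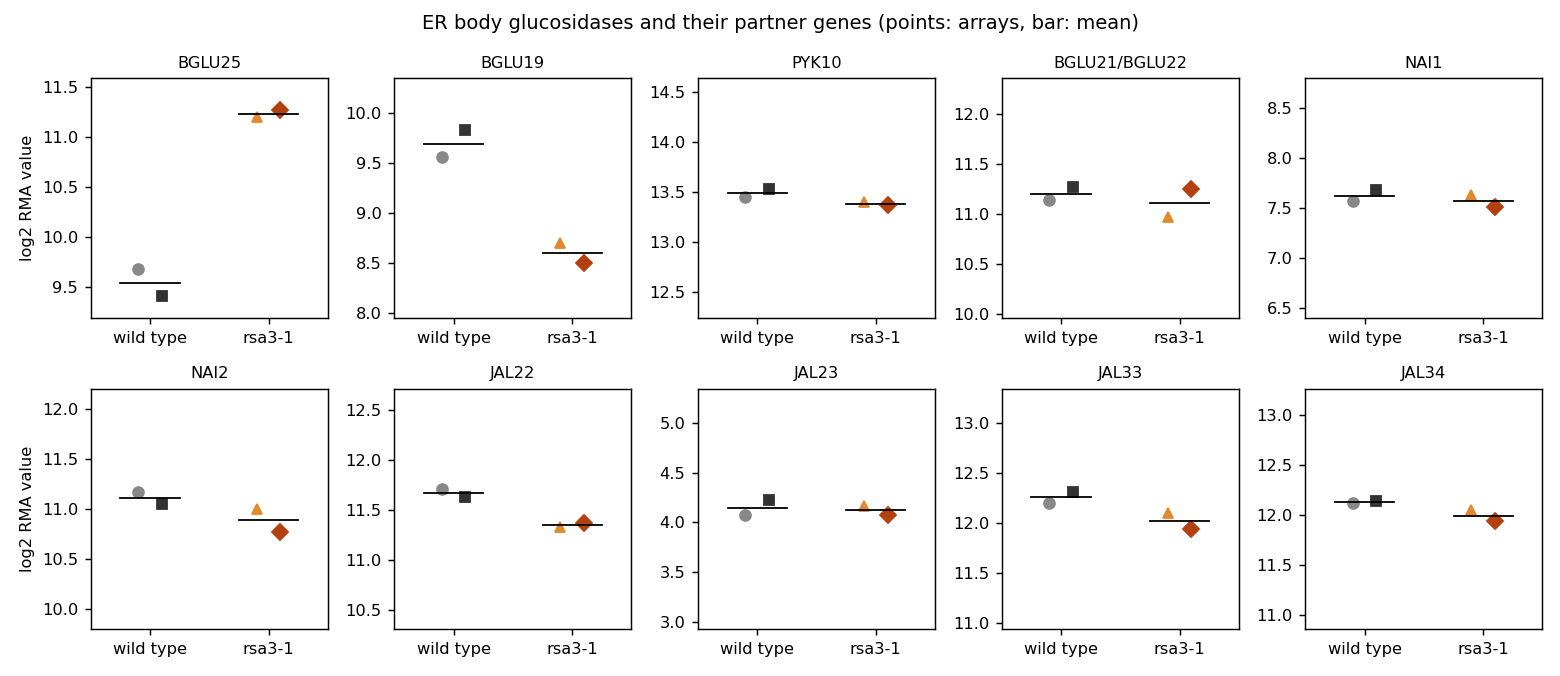
Log2 RMA values of BGLU25, BGLU19, PYK10, the probe set shared by BGLU21 and BGLU22, and 6 ER body partner genes, for wild type and rsa3-1 under salt; points are arrays, bars are means of 2, and all panels have the same vertical span. BGLU25 differs by 1.69 and BGLU19 by -1.09 on the log2 scale, and the partner genes by -0.32 to -0.03, which in JAL22, JAL33, JAL34 and NAI2 is also more than the wider replicate gap.

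The genes that build ER bodies and bind PYK10 did not pass the test. Of 15 such genes listed, 6 were measured, 0 rose, 0 fell and 1 had an unadjusted p under 0.05 (9.68% of all probe sets did). All 6 had log2 differences below 0, as did 52.9% of all probe sets, with a median of -0.18. Those of the 6 not named below overlapped between genotypes, and their sign changed with some arrays left out. JAL22, a jacalin-related lectin of the kind that binds PYK10 in aggregates, was at 11.71 and 11.64 in wild type, against 11.34 and 11.37 in rsa3-1 (log2 difference -0.32, 95% interval from -0.55 to -0.09, limma adjusted p = 0.32). The JAL22 difference was 4.40 times the wider replicate gap. JAL33 and JAL34, further lectins of this family, had log2 differences of -0.24 and -0.13 with no overlap between genotypes. NAI2, a protein needed to form ER bodies, was at 11.17 and 11.05 in wild type and at 11.00 and 10.77 in rsa3-1, a log2 difference of -0.23. JAL22, JAL33, JAL34 and NAI2 were thus lower in rsa3-1 with no overlap, as were 20.9% of all probe sets.

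No tissue marker measured passed the test. Of 9 root markers listed 4 were measured and 0 passed, with their mean log2 value at 6.38 to 6.52 in wild type and 6.17 to 6.37 in rsa3-1; EXPA18, a root hair expansin, had an unadjusted p under 0.05 at a log2 difference of -0.37. Among 9 photosynthetic shoot markers 5 were measured and 0 passed, at 12.72 to 12.78 and 12.88 to 12.90, and HPR, a photorespiratory reductase, had an unadjusted p under 0.05 at 0.28. Markers of guard and myrosin cells, 2 measured of 5, lay at 6.41 to 6.71 and 6.44 to 6.49, with 0 at an unadjusted p under 0.05. The 8 seed markers listed were not analysed here. As means over these lists, root marker values were lower and shoot marker values higher on both rsa3-1 arrays than on both wild type arrays. For root markers the nearest array means, 6.37 in rsa3-1 and 6.38 in wild type, almost met. EXPA18 and EXPA7, at -0.37 and -0.28, were separated between genotypes, while RCH1 and RCPG1, at -0.07 and -0.0014, overlapped. Of the shoot markers RCA, PSBW, PRK and HPR were separated, all higher in rsa3-1, and PSAE1 overlapped. Over all probe sets 17.8% were separated and higher, and 20.9% separated and lower. The part of these markers in the BGLU results was not tested.

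BGLU33, also called BG2, is a vacuolar enzyme that frees abscisic acid from its glucose ester, a stored form of this stress hormone. It read 6.18 and 6.40 in wild type, against 7.22 and 7.12 in rsa3-1. Both mutant arrays were higher, by 4.02 times the wider replicate gap. The log2 difference was 0.88, with a standard error of 0.11 and a 95% interval from 0.62 to 1.15 (limma adjusted p = 0.0151), between means of 6.29 ± 0.16 and 7.17 ± 0.07 (SD, n = 2 each). The call was lost without wild type replicate 1 (log2 difference 0.77, adjusted p = 0.087), the array with the high control probe sets, and without rsa3-1 replicate 1 (0.83, adjusted p = 0.056). Of 10 genes listed for abscisic acid conjugation, synthesis and breakdown, 2 were measured, and 0 passed at an adjusted or unadjusted p under 0.05. Both encode glucosyltransferases that make the glucose ester, UGT71C5 at a log2 difference of -0.11 and UGT71B6 at -0.05. UGT71B6 was dim, at 4.34 to 4.71 over the arrays. BGLU18, which also cuts the ester, was not analysed here.

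**Figure D3:**
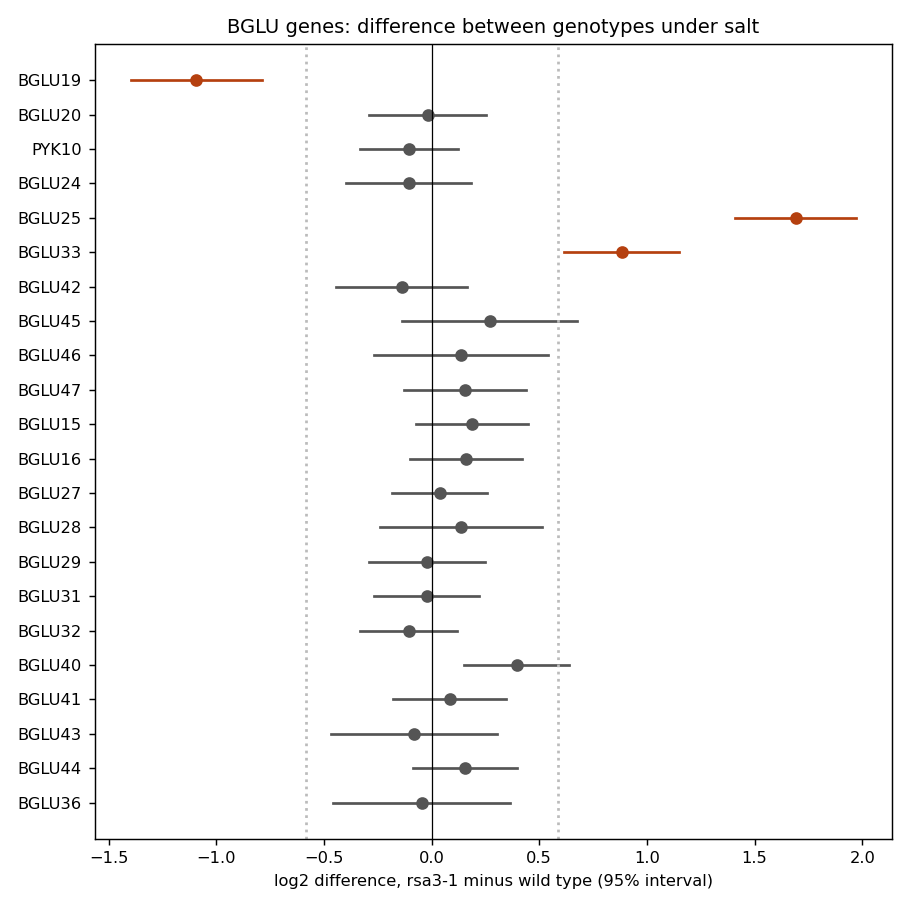
The log2 difference, rsa3-1 minus wild type under salt, of each BGLU gene with its 95% interval from limma; red marks an adjusted p under 0.05 and dotted lines mark 1.5-fold. BGLU25 at 1.69, BGLU33 at 0.88 and BGLU19 at -1.09 lie outside the dotted lines, and the intervals of 17 of the other 19 genes lie between them.

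Among members that act on coumarin and phenylpropanoid glucosides, 0 passed and 0 had an unadjusted p under 0.05. BGLU42, which frees coumarins for secretion from iron-starved roots, was at 8.27 and 8.03 in wild type, against 8.13 and 7.90 in rsa3-1. The genotypes overlapped, with a log2 difference of -0.14. Within each genotype replicate 1 was above replicate 2 by 0.25 and 0.23, more than the genotypes differed. Of 9 listed genes of coumarin synthesis and export 3 were measured, and 0 of them reached an unadjusted p under 0.05. The hydroxylases F6'H1 and S8H had log2 differences of 0.00 and 0.04, and COSY, a coumarin synthase, had -0.05.

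BGLU45 and BGLU46 cut monolignol glucosides in lignifying stem, and BGLU47 is a related gene. BGLU45 was at 6.27 and 6.80 in wild type, against 6.72 and 6.88 in rsa3-1, so wild type replicate 1 stood apart from the other 3 arrays, and the log2 difference was 0.27 with it and 0.00 without it. Its interval, from -0.14 to 0.67, is wide enough to hold a 1.5-fold rise. BGLU46 was also spread within genotypes, at 6.30 and 6.61 in wild type, against 6.82 and 6.36 in rsa3-1 (log2 difference 0.14, and -0.09 to 0.37 with an array left out). BGLU47 had a log2 difference of 0.16 at values of 3.83 to 4.18. The UGT72E enzymes add the glucose that these members remove; with them, 3 of 15 listed genes of monolignol glucosylation and lignin synthesis were measured, and 0 had an unadjusted p under 0.05. UGT72E3 had a log2 difference of 0.24, with wild type at 6.46 and 5.83, and UGT72E1 and UGT72E2 had 0.00 and -0.02.

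BGLU15 removes glucose from flavonol bisglycosides during recovery from stress. Its values were 8.44 and 8.51 in wild type, against 8.56 and 8.77 in rsa3-1, and BGLU16 had 8.24 and 8.40 against 8.40 and 8.55. In both genes the rsa3-1 arrays were the higher pair, but by less than the wider replicate gap (log2 differences 0.19 and 0.16, limma adjusted p = 0.67 and 0.73).

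The relatives of PEN2, an enzyme of glucosinolate-based defence, were dim. BGLU28, which is induced by sulphur starvation and breaks down glucosinolates, was at 4.70 and 5.08 in wild type, against 4.87 and 5.19 in rsa3-1 (log2 difference 0.14). Replicate 2 was the higher in both genotypes. BGLU27, BGLU29, BGLU31 and BGLU32 lay between 3.01 and 3.54 on all arrays, with log2 differences from -0.11 to 0.04. SDI2, the sulphur deficiency gene measured of 10 listed, had a log2 difference of 0.06, and UGT74B1, a glucosyltransferase and the indole glucosinolate gene measured of 15 listed, had 0.16, with neither at an unadjusted p under 0.05. The 14 genes listed as partners in glucosinolate breakdown and the 7 dark-inducible DIN genes listed were not analysed here.

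Of the remaining members, BGLU40 came closest to the threshold. It was at 7.27 and 7.27 in wild type, against 7.75 and 7.59 in rsa3-1, with no overlap and a log2 difference of 0.40 (95% interval from 0.15 to 0.64, unadjusted p = 0.0060, limma adjusted p = 0.23). On the other side of the threshold BGLU33 was the nearest, with a limma adjusted p of 0.0151, and after BGLU40 the next was 0.67. This gap around the threshold holds for the fit as reported, since BGLU33 and BGLU19 lost their calls in some other settings. BGLU44, which has beta-mannosidase activity, was at 10.74 and 10.89 in wild type, against 10.96 and 10.98 in rsa3-1 (log2 difference 0.16, 95% interval from -0.09 to 0.40). BGLU43, its neighbour in the genome, read 3.28 to 3.72 with a log2 difference of -0.08. BGLU41 had a log2 difference of 0.08. BGLU36, of the myrosinase branch, had the widest gap between rsa3-1 replicates in the family, 3.90 against 3.34, and a difference of -0.05. BGAL16, the measured gene of 17 listed beta-galactosidases, which form a separate hydrolase family, had a log2 difference of -0.09 (unadjusted p = 0.52).

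**Figure D4:**
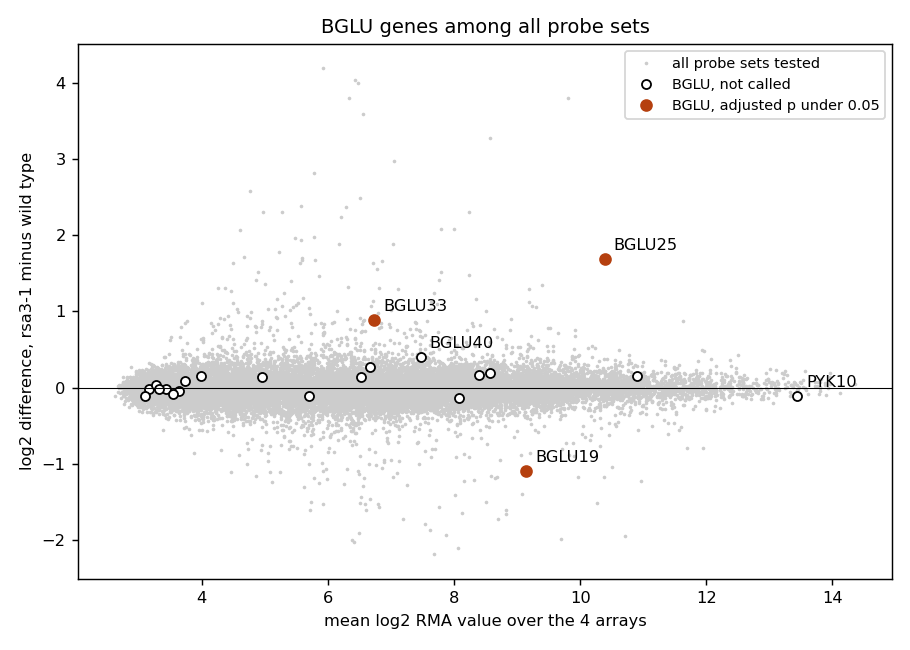
The log2 difference, rsa3-1 minus wild type, against the mean log2 RMA value over the 4 arrays, for all 22746 probe sets tested (grey) and the 22 BGLU genes (circles, red where the adjusted p is under 0.05). BGLU25, BGLU33 and BGLU19 lie outside the dense band, and the other members lie within it from the dim end to PYK10 at the bright end.

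The 10 genes BGLU20, BGLU27, BGLU28, BGLU29, BGLU31, BGLU32, BGLU36, BGLU41, BGLU43 and BGLU47 had a mean log2 value under 5, as did 32.7% of all probe sets, and may be at background, since detection calls were not used here. Their log2 differences ran from -0.11 to 0.16, and 0 had an unadjusted p under 0.05. The intervals of 17 of the 19 genes that did not pass excluded a 1.5-fold change, all except BGLU40 and BGLU45, and 91.5% of all probe sets were likewise uncalled with such an interval. These intervals are per gene and not adjusted for the number of genes, and for the dim genes they describe the probe set rather than a detected transcript. The list genes UGT71B6, S8H, BGAL16 and JAL23 were also under 5 on every array and may be at background.

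Many BGLU genes sit side by side in the RefSeq gene order, and 11 of the 22 have another BGLU gene as the next protein-coding gene. They are BGLU15, BGLU28 and BGLU29 in a row on chromosome 2, BGLU16 beside BGLU27 and BGLU43 beside BGLU44 on chromosome 3, BGLU45 beside BGLU46 on chromosome 1, and BGLU31 beside BGLU32 on chromosome 5. Of these 11, 0 were called and 0 had an unadjusted p under 0.05, near the shares of 1.13% and 9.68% over all probe sets, so nothing is read from the position. BGLU25 and BGLU19 lie on chromosome 3 and BGLU33 on chromosome 2, without a BGLU neighbour. Neighbouring copies can share sequence, and how far their probe sets match each other was not tested. AT3G21360, next to BGLU19, and AT2G32850, next to BGLU33, did not pass, with log2 differences of 0.21 and -0.07. Their neighbours on the other side, AT3G21371 and AT2G32870, and both neighbours of BGLU25, CS26 and EDA5, were not analysed here.

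**Figure D5:**
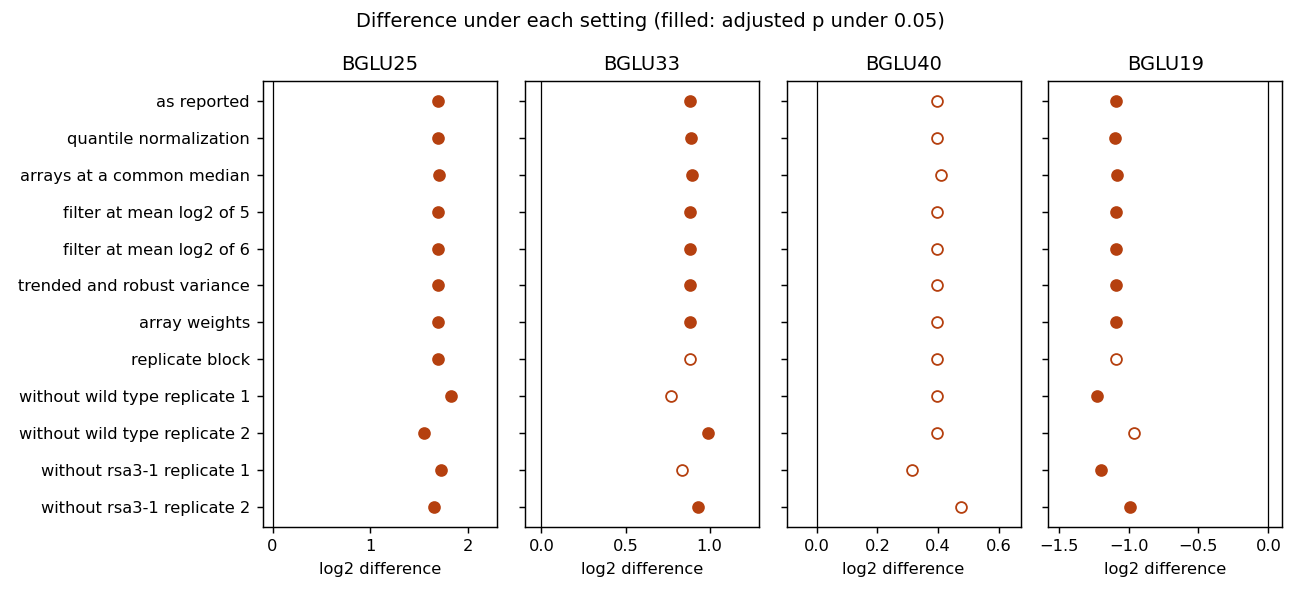
The log2 difference, rsa3-1 minus wild type, of BGLU25, BGLU33, BGLU40 and BGLU19 as reported and under each of 11 other settings; filled circles have an adjusted p under 0.05, and the scale differs between panels. BGLU25 is filled in all settings, BGLU33 and BGLU19 are open in 3 and 2 of the 11, and BGLU40 is open in all.

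Across these settings BGLU25 kept a log2 difference of 1.55 to 1.83, BGLU33 of 0.77 to 0.99 and BGLU19 of -1.23 to -0.96. BGLU40 ran from 0.32 to 0.48 and was not called in any of them, with adjusted p from 0.14 to 0.73.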

How the data were processed

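Per the submitters' processing notes, the authors made the deposited log2 values with RMA, a method of background correction, between-array normalization and summary over the probes of a set; its software, version and probe sets are not stated (not given in the sources used here). Between-array normalization removes a change shared by most transcripts, and RMA compresses differences among dim probe sets. The values were used as deposited. Of 22810 probe sets, 64 array controls were left out. Each of the other 22746 was fitted with limma 3.58.1 in R 4.3.3 (lmFit, eBayes, two-sided, 5.35 prior degrees of freedom), as rsa3-1 minus wild type over all 4 arrays, with Benjamini-Hochberg adjustment over the whole table and a threshold of 0.05. Precision is limited by the number of arrays, and p-values measure only the spread between these arrays.

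The platform annotation, which can be old, gave 1 gene for 13513 probe sets and several for 503, and 8730 are unnamed here; 13436 of the first matched RefSeq genes of assembly TAIR10.1 by identifier. Coordinates are left out, since the annotation names no genome build. Of 112 genes in 9 lists 17 were measured, and of 31 tissue markers 11. The members and lists were chosen with earlier results of these data known. All measured members are described, with up to 4 list or marker genes of smallest p each. BGLU40, and genes next to called members, are set out after their values were seen. The fit was tested on simulated data with independent noise drawn from its own fitted variance model. That test cannot speak to array effects in the real data. Alternatives covered scaling, dim-probe filters, variance model, array weights, a replicate block, each array left out, and thresholds. Tables and figures used Python 3.11.15, pandas 2.3.3 and matplotlib 3.10.9.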

Additional observations from a re-analysis of the deposited data

How the results depend on the processing

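The 3 BGLU calls held under quantile normalization, a common array median, a minimum mean log2 value of 5 or of 6, trended and robust variance, and array weights. Counting the probe set shared by BGLU21 and BGLU22, an alternative chosen after seeing the data, also left 3. At an unadjusted p under 0.05 there were 4 BGLU genes and 2202 probe sets in all. With single arrays left out there were 2 to 3 BGLU calls and 102 to 222 calls over all probe sets against 256; the single array that remains is taken to vary as the other genotype does. The array left out was wild type replicate 1 for 102, wild type replicate 2 for 127 and rsa3-1 replicate 2 for 143 calls. With the replicate number as a block, 1 BGLU gene (BGLU25, limma adjusted p = 0.0487, just under the threshold) and 42 probe sets were called. BGLU19 and BGLU33 then had limma adjusted p of 0.131 and 0.132. Arrays with the same number deviated from their group means with a correlation of 0.013 across probe sets. This single value cannot show whether same-numbered arrays were handled together. The median over the BGLU genes moved from 0.06 to 0.16 with either filter, which leaves out dim members (12 or 11 genes tested), and ran from -0.01 to 0.09 with an array left out. Of 221 values for single members under alternatives, 5 lost a call, 0 gained one and 0 called values changed sign. Only the 3 called genes could lose a call, and all 5 losses were in BGLU19 and BGLU33, with 11 alternatives each. Among the 19 members not called, the sign changed in 15 values of 9 genes, so their directions are not settled. No BGLU gene had several probe sets, so taking the lowest was not possible. Without detection calls, a change in a gene near background may not be seen.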
